A study of Rattus norvegicus with 12 samples.

Results

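The genes described here respond in many cell types to YAP, to serum response factor (SRF) or to TGF-β. The 9 genes were *Thbs1*, *Ccn1*, *Ccn2*, *Ankrd1*, *Tagln*, *Acta2*, *Cnn1*, *Myl9* and *Tpm1*, chosen by gene symbol out of 21556 genes in an RNA sequencing experiment on ND7/23 cells, a hybrid line of rat dorsal root ganglion (DRG) neurons and mouse N18Tg2 neuroblastoma cells. All 9 were in the data. The set was made with the fall of *Thbs1* after Wnt3a already known, so the Wnt3a differences of these 9 genes are descriptions. Their p-values are not printed, and nothing is inferred from how many of the 9 differed or passed a threshold. Other genes of the same pathways were tested with Wnt3a, from lists chosen with earlier results of these data known. The 12 libraries made 4 groups of 3: control cells, cells given 100 μM menthol, cells given 100 ng/ml Wnt3a, and cells given menthol with Wnt3a at the same doses, each for 6 h. Menthol is an agonist of the cold-sensing channel TRPM8, and Wnt3a is a ligand that stabilises β-catenin. Nothing else in the labels separates the groups. Whether the control cells received the solvent of menthol, whether the cells had been differentiated with nerve growth factor, and whether the libraries of a group came from separate cultures are not given in the sources used here. The p-values below therefore measure only the spread between these libraries, which may be technical.

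YAP and TAZ are cofactors that enter the nucleus when the Hippo kinases LATS1 and LATS2 are inactive, bind TEAD proteins on DNA and switch on genes for secreted matrix-associated proteins. SRF works with the cofactors MRTF-A and MRTF-B, which are held in the cytoplasm by monomeric actin, and drives genes of the actin cytoskeleton and of the smooth muscle contractile apparatus. TGF-β acts through receptor kinases and SMAD proteins, and many genes answer to more than 1 of these routes. *Thbs1* encodes thrombospondin 1, a matrix glycoprotein that can activate latent TGF-β. *Ccn1* (also called Cyr61) and *Ccn2* (also called CTGF) encode secreted CCN proteins, and together with *Ankrd1*, which encodes a nuclear ankyrin repeat cofactor first described in heart, they are the genes most often used as a readout of YAP. *Tagln* (transgelin, or SM22α), *Acta2* (smooth muscle α-actin), *Cnn1* (calponin 1), *Myl9* (a regulatory light chain of myosin) and *Tpm1* (tropomyosin 1) encode proteins of actin filaments and of contraction.

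The values are FPKM, fragment counts divided by the length of the gene and by the library's mapped fragments. Whole read counts could be recovered from them for all 21556 genes, and 36914010 to 38836269 reads per library lay on genes. Each of the 12 pairs of libraries within a group differed beyond counting error (chi-square per degree of freedom 3.53 to 7.61), and all libraries were kept as separate samples. The labelled cell type was checked against marker genes. Of 12 neuronal markers, *Uchl1* had 94.2 to 111 FPKM, *Isl1* 9.28 to 17.6 and *Map2* 6.21 to 7.44, while *Tubb3*, *Prph*, *Stmn2*, *Elavl3*, *Elavl4*, *Nefl*, *Nefm* and *Gap43* had at most 13 reads in any library. Of 8 fibroblast markers, *Thy1* had 136 to 148 FPKM and *Col1a2* 109 to 126, *Col1a1*, *Pdgfra*, *Pdgfrb* and *Col3a1* averaged 2.36 to 6.74, and *Dcn* and *Lum* 0.194 and 0.0886. Of the smooth muscle markers, *Myocd* (myocardin, a smooth muscle cofactor of SRF), *Lmod1* and *Actg2* had at most 8 reads in any library, and *Smtn*, *Myh11*, *Synpo2* and *Des* were the 4 of 8 with a mean of at least 0.5 FPKM. In bulk RNA, fewer cells that express a gene and less RNA per cell cannot be told apart.

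The 250 bases before the annotated start of transcription were taken from RefSeq (build GRCr8, which is not the build mRatBN7.2 named in the submitters' processing notes) and were found for 6 of the 9 genes. *Ankrd1*, *Tagln* and *Myl9* had no entry. The sequences of *Thbs1*, *Ccn1* and *Ccn2* are shown because, of the 8 genes tested, they had the log2 fold changes furthest below zero in Wnt3a against control, and that of *Acta2* because it is a contractile gene whose Wnt3a difference had the opposite sign. Each is written 5′ to 3′ on the strand of the gene, and capitals mark the TEAD motif GGAATG or, where the match lies on the other strand, its complement CATTCC. *Thbs1* is at chr3:125510000-125510249 on the plus strand, *Ccn1* at chr2:237225690-237225939 on the minus strand, *Ccn2* at chr1:22624615-22624864 on the minus strand and *Acta2* at chr1:241172504-241172753 on the minus strand.
*Thbs1*: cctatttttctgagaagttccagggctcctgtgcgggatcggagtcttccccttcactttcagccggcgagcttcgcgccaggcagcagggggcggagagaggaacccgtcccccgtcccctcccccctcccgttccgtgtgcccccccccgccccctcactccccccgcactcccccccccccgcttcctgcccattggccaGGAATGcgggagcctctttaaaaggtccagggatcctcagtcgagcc
*Ccn1*: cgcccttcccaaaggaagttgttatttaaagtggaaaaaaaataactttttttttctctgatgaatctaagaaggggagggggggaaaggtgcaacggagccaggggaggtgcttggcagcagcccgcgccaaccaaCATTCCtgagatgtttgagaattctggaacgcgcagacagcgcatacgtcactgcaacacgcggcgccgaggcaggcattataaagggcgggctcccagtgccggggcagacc
*Ccn2*: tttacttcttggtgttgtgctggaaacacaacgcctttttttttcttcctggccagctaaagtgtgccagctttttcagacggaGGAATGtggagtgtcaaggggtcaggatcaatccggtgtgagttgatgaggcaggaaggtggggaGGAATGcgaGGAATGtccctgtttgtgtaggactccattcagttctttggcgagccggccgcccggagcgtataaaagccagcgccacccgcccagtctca
*Acta2*: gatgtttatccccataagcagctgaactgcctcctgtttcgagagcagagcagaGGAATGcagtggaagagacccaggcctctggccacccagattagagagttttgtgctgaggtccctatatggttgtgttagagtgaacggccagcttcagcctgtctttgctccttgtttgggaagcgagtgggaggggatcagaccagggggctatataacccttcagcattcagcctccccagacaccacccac

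GGAATG, searched on both strands, was in 5 of the 6 sequences and in 12.1% of 33469 promoters of the same length. *Thbs1* held 1 match at positions -47 to -42 from the start. *Ccn1* held 1 at positions -113 to -108 on the other strand. *Ccn2* held 3, starting at positions -166, -101 and -92, and at least 3 matches were found in 0.0807% of all promoters. *Acta2* held 1 starting at position -196 and *Tpm1* 1 starting at position -31, and *Cnn1* held none. The SMAD motif CAGAC was in 4 of the 6 (*Ccn1*, *Ccn2*, *Acta2* and *Cnn1*) and in 42.9% of all promoters, and the TATA box TATAAA in 2 of the 6 (*Ccn1* and *Ccn2*) and in 12.9%. The CArG box of SRF was searched in its strict form (CC, 6 bases of A or T, GG). It was in none of the 6 and in 1.5% of all promoters. Forms 1 base away were not counted, such as ccctatatgg and ccttgtttgg in the *Acta2* sequence above. The β-catenin partner motifs CTTTGAA and CTTTGAT were in none and in 4.68% and 3.15%. The AP-1 motif TGANTCA was in none and in 6.34%. No TEAD match overlapped a match of another motif. A missing match says only that these letters are not in these 250 bases.

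**Figure D1:**
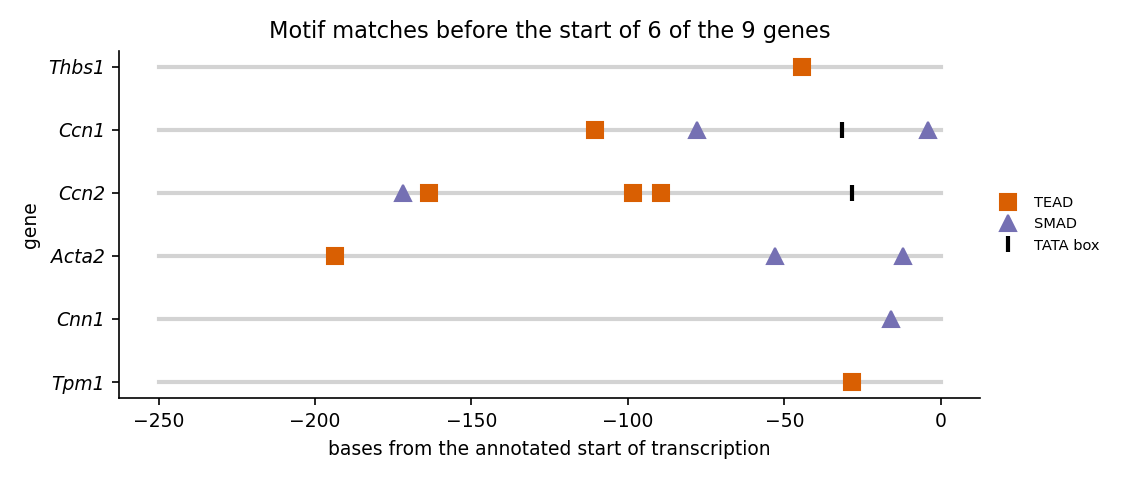
Motif matches in the 250 bases before the start of transcription of the 6 genes with a RefSeq promoter, with position in bases from the start on the horizontal axis and 1 line per gene. Squares are TEAD matches, triangles SMAD matches and bars TATA boxes, and *Ccn2* alone carries 3 squares.

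Levels of the 9 genes spanned the range from abundant to barely detected. *Thbs1* averaged 668 FPKM over the 12 libraries and ranked 101 of 21556 genes, taking 0.325 to 0.468% of the reads on genes. *Tpm1* averaged 216 FPKM (rank 282), *Ccn1* 26.6, *Ccn2* 13.5, *Ankrd1* 4.14, *Tagln* 3.38, *Myl9* 1.13, *Acta2* 0.722 and *Cnn1* 0.124. Neighbours in this order stood in the same order in all 12 libraries except *Ankrd1* and *Tagln* (9 of 12) and *Myl9* and *Acta2* (10 of 12). The contractile genes *Tagln*, *Myl9*, *Acta2* and *Cnn1* therefore rested on few reads, with 90 to 215, 28 to 84, 18 to 86 and 1 to 20 per library, while *Tpm1* had 26059 to 29761. How reads shared with close relatives were counted is not given in the sources used here, so *Acta2* (shared with other actins), *Myl9* (with *Myl12a* and *Myl12b*) and *Tpm1* (with other tropomyosins) are uncertain to that extent.

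**Figure D2:**
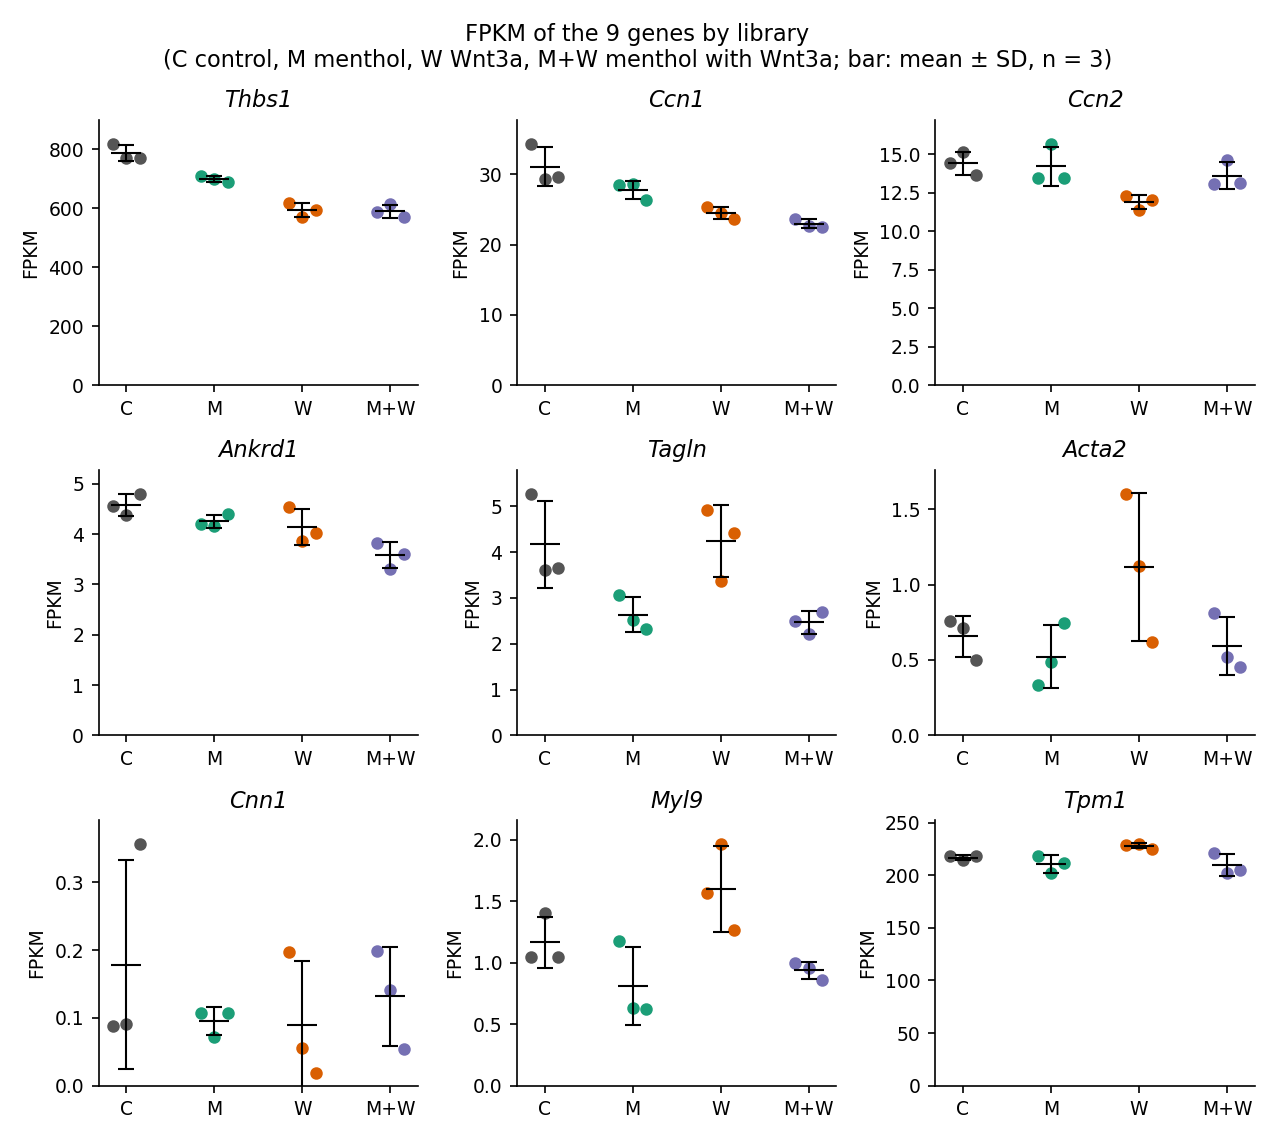
FPKM of each of the 9 genes (vertical axis, from 0, with its own scale per panel) in the 4 groups, with points for single libraries and bars for the mean ± SD of 3 libraries. *Thbs1* and *Ccn1* have their lowest points in the 2 groups with Wnt3a, *Tagln* has its lowest in the 2 groups with menthol, and the points of *Cnn1* overlap between all groups.

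*Thbs1* and *Ccn1* were lower in every library with Wnt3a than in every library without it, while *Ccn2* was not. How many of all genes did so is not reported here. *Thbs1* measured 819, 771 and 771 FPKM in control libraries, 711, 700 and 689 with menthol, 616, 571 and 594 with Wnt3a, and 588, 613 and 569 with both. The menthol libraries lay between the control libraries and the Wnt3a libraries. The mean was 787 ± 27.6 FPKM (SD, n = 3) in control and 594 ± 22.6 with Wnt3a, 24.6% lower, a log2 fold change of -0.41 (SE 0.04). With menthol present on both sides, Wnt3a went with a mean 15.7% lower, a log2 fold change of -0.25 (95% interval -0.32 to -0.17).

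*Ccn1* followed the same order of groups. It measured 34.4, 29.3 and 29.7 FPKM in control libraries, 28.5, 28.6 and 26.4 with menthol, 25.4, 24.5 and 23.6 with Wnt3a, and 23.7, 22.6 and 22.5 with both. The libraries with Wnt3a again lay below all libraries without it. The Wnt3a mean was 21.2% below control (log2 fold change -0.34, SE 0.06), and the mean with both stimuli 17.5% below menthol (log2 fold change -0.28, SE 0.06).

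*Ccn2*, the other CCN gene, differed from *Ccn1* in the libraries with both stimuli. It measured 14.4, 15.2 and 13.7 FPKM in control libraries, 13.5, 15.7 and 13.5 with menthol, 12.3, 11.4 and 12.1 with Wnt3a, and 13.1, 14.6 and 13.2 with both. The 3 Wnt3a libraries were below those of every other group, and the libraries with both stimuli overlapped control. The mean was 17.4% lower with Wnt3a than in control (log2 fold change -0.27, SE 0.07) and 4.16% lower with both stimuli than with menthol (95% interval of the log2 fold change -0.20 to 0.08).

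*Ankrd1* was lowest with both stimuli. It measured 4.57, 4.37 and 4.79 FPKM in control libraries, 4.19, 4.17 and 4.40 with menthol, 4.54, 3.87 and 4.02 with Wnt3a, and 3.82, 3.31 and 3.61 with both. The libraries with both stimuli did not overlap those of any other group, while the Wnt3a libraries overlapped control. The mean with both was 21.8% below control, with a log2 fold change of -0.35 (SE 0.08), against 9.46% below control with Wnt3a alone.

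Of the contractile genes, *Acta2*, *Myl9*, *Tpm1* and *Tagln* had means with Wnt3a at or above those of control. In the Wnt3a group the mean of *Acta2* was 1.12 ± 0.490 FPKM (SD, n = 3) against 0.658 ± 0.137 in control, that of *Myl9* 1.60 ± 0.349 against 1.17 ± 0.207, and that of *Tpm1* 228 ± 2.24 against 217 ± 2.44. Only the *Tpm1* libraries were apart, at 225 to 229 FPKM with Wnt3a and 214 to 218 in control, 5.15% higher. *Tagln* averaged 4.24 FPKM with Wnt3a and 4.17 in control, and the sign of this difference changed when 1 library was left out (log2 fold change between -0.09 and 0.20).

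The Wnt3a values were known when the set was made, so nothing is read from the counts that follow. Of the 8 genes tested (*Cnn1* was under the minimum of 0.5 FPKM), 2 passed an adjusted p of 0.05 in Wnt3a against control, where 0.437% of all 11451 tested genes did. 1 of 8 passed in menthol with Wnt3a against menthol (0.0961% of all), 2 of 8 in menthol with Wnt3a against control (0.83% of all) and 2 of 8 in the 6 libraries with Wnt3a against the 6 without (0.803% of all). The genes that passed were *Thbs1* in each of these and *Ccn1* in all but menthol with Wnt3a against menthol. With 1 library left out, *Ccn1* no longer passed in Wnt3a against control in 4 of 6 fits (without control replicate 1 or 3 or Wnt3a replicate 1 or 2), and *Thbs1* no longer passed in menthol with Wnt3a against menthol in 5 of 6 (all but the fit without replicate 2 of both stimuli). Libraries did not overlap for 4 of 8 genes in Wnt3a against control (20.2% of all genes) and for 3 of 8 in menthol with Wnt3a against menthol (11.3% of all). None of these changes exceeded 2-fold, and the control libraries are shared by the comparisons with control.

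**Figure D3:**
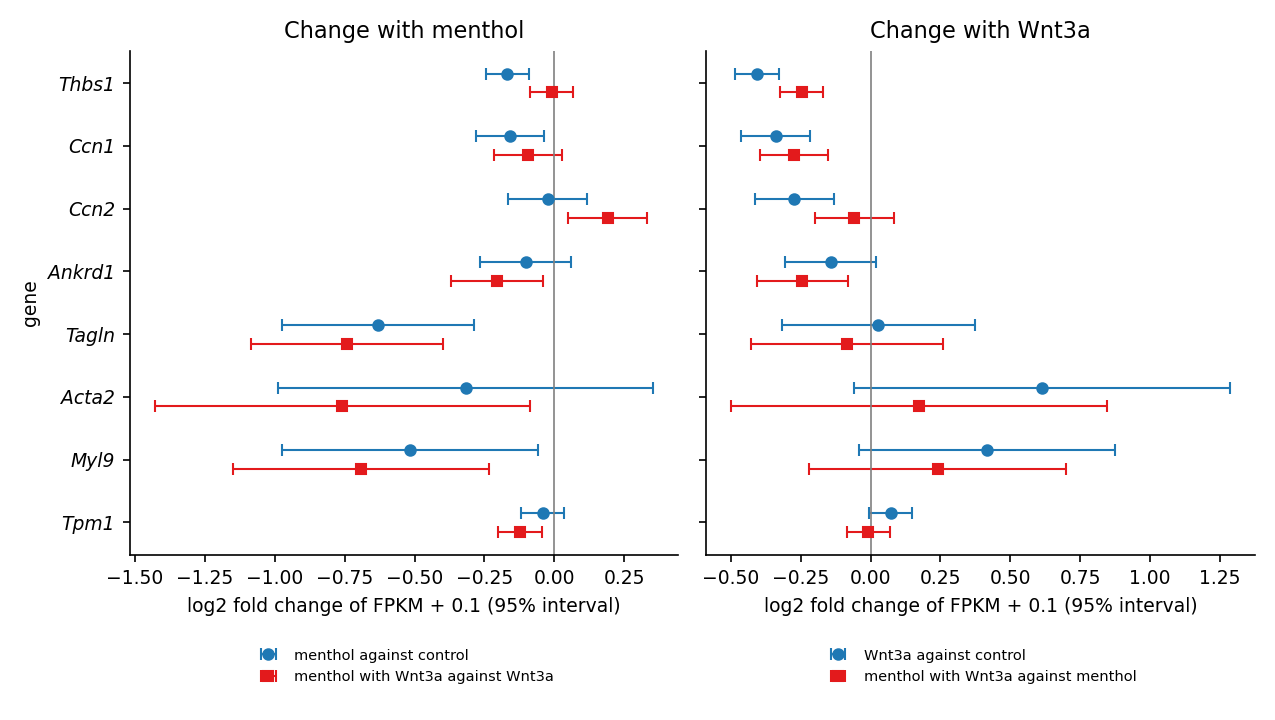
Log2 fold change of FPKM + 0.1 with its 95% interval (horizontal axis) for the 8 tested genes, menthol comparisons on the left and Wnt3a comparisons on the right, with circles for the comparison with control and squares for the same stimulus added to the other. *Tagln* lies at -0.63 and -0.74 in the menthol comparisons, and *Thbs1* at -0.41 and -0.25 in the Wnt3a comparisons.

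Menthol is not named in the choice of the set, but the genes were chosen with earlier results of these data known. Its clearest difference was in *Tagln*. *Tagln* measured 5.27, 3.60 and 3.64 FPKM in control libraries, 4.92, 3.38 and 4.42 with Wnt3a, 3.06, 2.51 and 2.32 with menthol, and 2.50, 2.20 and 2.70 with both. The 6 libraries with menthol (2.20 to 3.06 FPKM) were all below the 6 without (3.38 to 5.27). The share of all genes separated in this way is not reported here, so nothing is read from the separation itself. *Tagln* fell from a mean of 4.20 FPKM without menthol to 2.55 with it, 39.3% lower, a log2 fold change of -0.69 (SE 0.11, adjusted p = 0.00966 by limma). It was the 1 of 8 genes that passed in this comparison, against 1.15% of all tested genes that did in either direction and 0.664% that did so downwards. It also passed without each of the 12 libraries in turn (highest adjusted p by limma 0.0365). With no FPKM minimum, which raises the number of tested genes to 21556, the adjusted p by limma was 0.0551.

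Taken group by group, the *Tagln* difference was similar in size but did not pass. Menthol against control gave a log2 fold change of -0.63 (SE 0.16, adjusted p = 0.204 by limma), and menthol with Wnt3a against Wnt3a gave -0.74 (SE 0.16, adjusted p = 0.0836). In both comparisons the libraries of the 2 groups did not overlap, as was so for 15.9% and 17.7% of all tested genes. The interaction of menthol and Wnt3a, that is, the difference between these 2 menthol effects, was -0.11 for *Tagln* (95% interval -0.60 to 0.37).

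*Myl9* and *Acta2* had lower means with menthol of a size like that of *Tagln*, on fewer reads, and did not pass. *Myl9* measured 1.04, 1.41 and 1.05 FPKM in control libraries, 1.17, 0.633 and 0.628 with menthol, 1.57, 1.96 and 1.27 with Wnt3a, and 0.999, 0.956 and 0.863 with both. Its libraries overlapped between the 2 sides because menthol replicate 1 stood near the control libraries. Its mean was 36.7% lower in the 6 libraries with menthol, a log2 fold change of -0.60 (SE 0.15, adjusted p = 0.0733 by limma). With 1 library left out, it passed in 1 of 12 fits, that without menthol replicate 1 (-0.74, adjusted p = 0.0129 by limma). Over the 12 fits the log2 fold change ran from -0.74 to -0.53, with adjusted p by limma up to 0.163.

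*Acta2* had the largest SE of the 8 tested genes (0.31 in menthol against control). It measured 0.757, 0.715 and 0.501 FPKM in control libraries, 0.337, 0.488 and 0.744 with menthol, 1.60, 1.13 and 0.620 with Wnt3a, and 0.811, 0.517 and 0.452 with both. No 2 groups were apart. Its mean was 37.0% lower in the libraries with menthol, with a 95% interval of the log2 fold change of -1.01 to -0.06 and an adjusted p of 0.256 by limma.

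*Tpm1* and *Cnn1* complete the contractile genes. *Tpm1* measured 218, 214 and 218 FPKM in control libraries, 219, 202 and 211 with menthol, 229, 229 and 225 with Wnt3a, and 221, 202 and 205 with both. The libraries with both stimuli were all below those with Wnt3a alone and overlapped control, and the mean over the 6 libraries with menthol was 5.50% lower (log2 fold change -0.08, SE 0.03, adjusted p = 0.145 by limma). *Cnn1* had counts of 5, 5 and 20 in control libraries, of 6, 4 and 6 with menthol, of 11, 3 and 1 with Wnt3a, and of 11, 8 and 3 with both, so no difference was detectable at this depth.

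In the secreted factors and *Ankrd1*, menthol differences were smaller than in *Tagln*, *Myl9* and *Acta2*, and none passed by limma. *Thbs1* was 11.1% lower with menthol than in control, a log2 fold change of -0.17 (SE 0.04, adjusted p = 0.126 by limma), and its 3 menthol libraries lay below the 3 control libraries. Limma voom on the recovered reads passed this comparison (adjusted p = 0.00543). On top of Wnt3a, menthol went with a *Thbs1* log2 fold change of -0.01 (95% interval -0.09 to 0.07). *Ccn1* was 10.6% lower with menthol than in control (adjusted p = 0.395 by limma) and 6.32% lower with both than with Wnt3a (adjusted p = 0.47). With 1 library left out, the first of these had log2 fold changes from -0.20 to -0.085. *Ccn2* was 1.45% lower with menthol than in control, a difference whose sign changed when 1 library was left out (log2 fold change -0.096 to 0.014). It was 14.3% higher with both than with Wnt3a, where its libraries did not overlap (log2 fold change 0.19, SE 0.07, adjusted p = 0.228 by limma). *Ankrd1* was 7.08% lower with menthol and 13.6% lower with both than with Wnt3a (adjusted p = 0.734 and 0.255 by limma).

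Of the 8 genes tested, 0 passed by limma in menthol against control, where 0.105% of all genes did, and 4 had an unadjusted p under 0.05 (9.34% of all). Limma voom passed 1, *Thbs1*, and 53 of all 11451 tested genes. 0 of 8 passed in menthol with Wnt3a against Wnt3a (0.0524% of all genes), where 6 had an unadjusted p under 0.05 (14.5% of all). There limma voom passed 1, *Tagln*, and 146 of all 11451. All 8 had a lower mean on the log2 scale with menthol than in control, with a median log2 fold change of -0.16, against -0.0016 over all tested genes. The sign of *Ccn2* changed when 1 library was left out (-0.096 to 0.014). On top of Wnt3a, 7 of 8 were lower, with *Ccn2* the exception, and the median was again -0.16 against -0.0017. There the sign of *Thbs1* changed when 1 library was left out (-0.037 to 0.018). Over all 12 libraries, 7 of 8 were lower with menthol (median -0.14, against -0.00098 over all genes). These 3 comparisons share libraries, and the 9 genes were not chosen at random from all genes.

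For the interaction of menthol and Wnt3a, 0 of 8 genes passed by limma and 0 by limma voom, as did 0% of all tested genes by limma. The interaction contains the Wnt3a difference from control that was known when the set was made, so its values are descriptions too. 2 of 8 had an unadjusted p under 0.05, against 6.99% of all, and nothing is read from this count. *Thbs1* had an interaction of 0.16 on the log2 scale (SE 0.05), which is the excess of its mean with both stimuli over the sum of the 2 separate differences. *Ccn2* had one of 0.21 (SE 0.09).

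**Figure D4:**
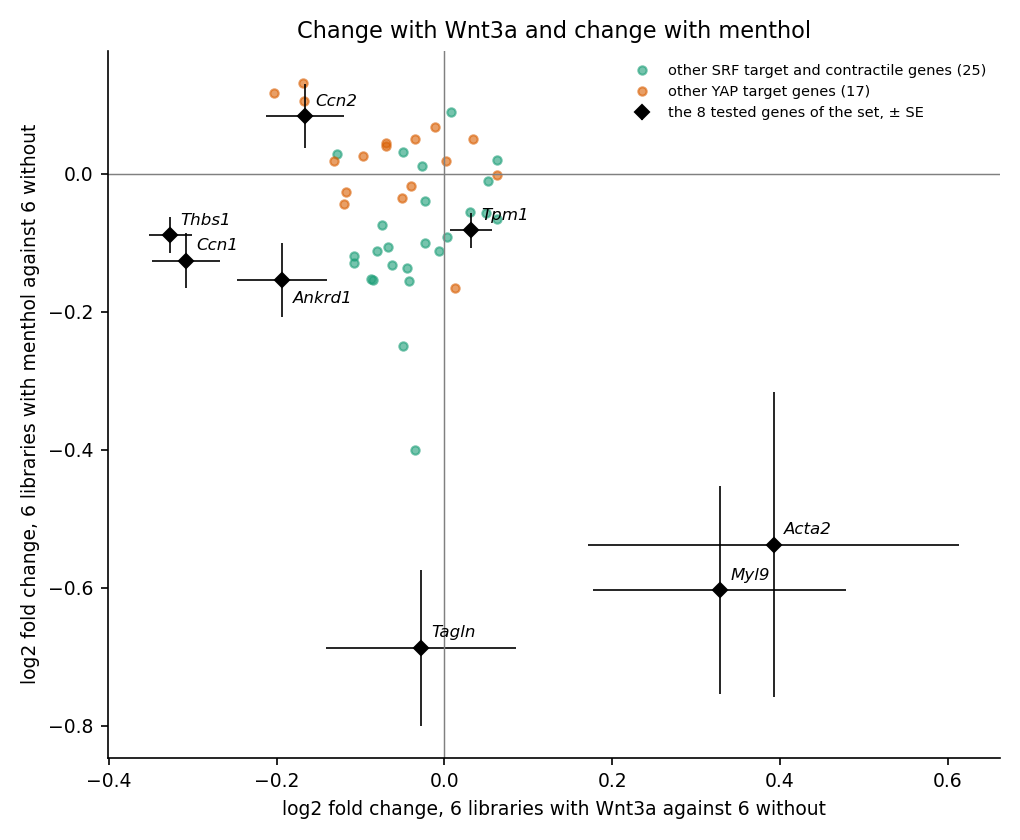
Log2 fold change of the 6 libraries with Wnt3a against the 6 without (horizontal axis) and of the 6 with menthol against the 6 without (vertical axis), with diamonds and SE bars for the 8 tested genes and circles for other SRF targets and contractile genes (25) and other YAP targets (17). *Thbs1* and *Ccn1* lie far to the left at -0.33 and -0.31, and *Tagln* lies lowest at -0.69.

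Other genes of the same pathways were counted from lists. These lists were chosen with earlier results of these data known, so the counts below are descriptions. Among 25 tested SRF targets and contractile genes outside the set, 8 fell and 0 rose with menthol over the 12 libraries, against 0.664% of all tested genes that fell. The median log2 fold change of the list was -0.10, with 20 of 25 lower, against a median of -0.00098 over all genes. *Tgfb1i1*, which encodes Hic-5, a focal adhesion protein of smooth muscle and fibroblasts, fell most, from 34.9 ± 0.905 FPKM (SD, n = 3) in control to 26.9 ± 1.98 with menthol, and from 34.7 ± 2.19 with Wnt3a to 25.8 ± 0.406 with both. Its log2 fold change over the 12 libraries was -0.40 (adjusted p = 0.000562 by limma), and it also passed in menthol against control (adjusted p = 0.0193) and in menthol with Wnt3a against Wnt3a (adjusted p = 0.00963). With 1 library left out, these last calls held in 2 of 6 fits (adjusted p by limma 0.0222 to 0.0957) and in 4 of 6 (0.00447 to 0.0998).

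The other 7 that fell had smaller changes. *Actb* (cytoplasmic β-actin) fell by 0.16 on the log2 scale, *Flna* (filamin A, an actin crosslinker) by 0.15, *Cnn2* (calponin 2) by 0.13, *Actn1* (α-actinin 1) by 0.13, *Vcl* (vinculin) by 0.12, *Cald1* (caldesmon) by 0.11 and *Myh9* (non-muscle myosin heavy chain) by 0.11, with adjusted p between 0.00687 and 0.0348 by limma. When 1 of the 12 libraries was left out, *Myh9* passed in 2 of 12 fits (adjusted p 0.0109 to 0.0867) and *Vcl* in 7 of 12 (0.0275 to 0.0756), and the other 6 of these 8 genes passed in all 12. *Actg1* (cytoplasmic γ-actin), the second most abundant gene of the list, had a log2 fold change of -0.14 (adjusted p = 0.0941). *Fhl1* did not pass over the 12 libraries (adjusted p = 0.0541) and passed in menthol with Wnt3a against control (log2 fold change -0.24, adjusted p = 0.0443 by limma), where it passed in 0 of 6 fits with 1 library left out (0.0817 to 0.178).

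Fibroblast markers were lower in sum in every library with menthol than in every library without it. The summed FPKM of the 8 markers ran from 286 to 293 in control and from 276 to 280 with Wnt3a, but from 265 to 270 with menthol and from 263 to 270 with both. *Thy1* and *Col1a2* made up most of each sum. Without *Thy1* the sums ran from 139 to 148, 131.5 to 138, 127 to 131.1 and 127 to 129 in the same order. *Dcn* and *Lum*, which define many fibroblasts, had at most 22 and 13 reads in any library. The 8 smooth muscle markers summed to 18.0 to 18.7 FPKM in control libraries, 16.2 to 17.6 with menthol, 18.0 to 18.8 with Wnt3a and 17.6 to 18.9 with both, and 5 pericyte markers to 21.2 to 23.1, 17.3 to 19.8, 20.1 to 21.8 and 19.2 to 22.0 in the same order. Of the pericyte markers, *Rgs5*, *Kcnj8* and *Abcc9* had at most 3 reads in any library. The part of these markers in the *Tagln* result and in the list was not tested. The 7 heart muscle markers in the data summed to 2.59 to 3.16 FPKM in control libraries, 4.05 to 6.65 with menthol, 3.19 to 5.56 with Wnt3a and 2.72 to 6.71 with both, the opposite direction to *Tagln* for menthol against control.

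**Figure D5:**
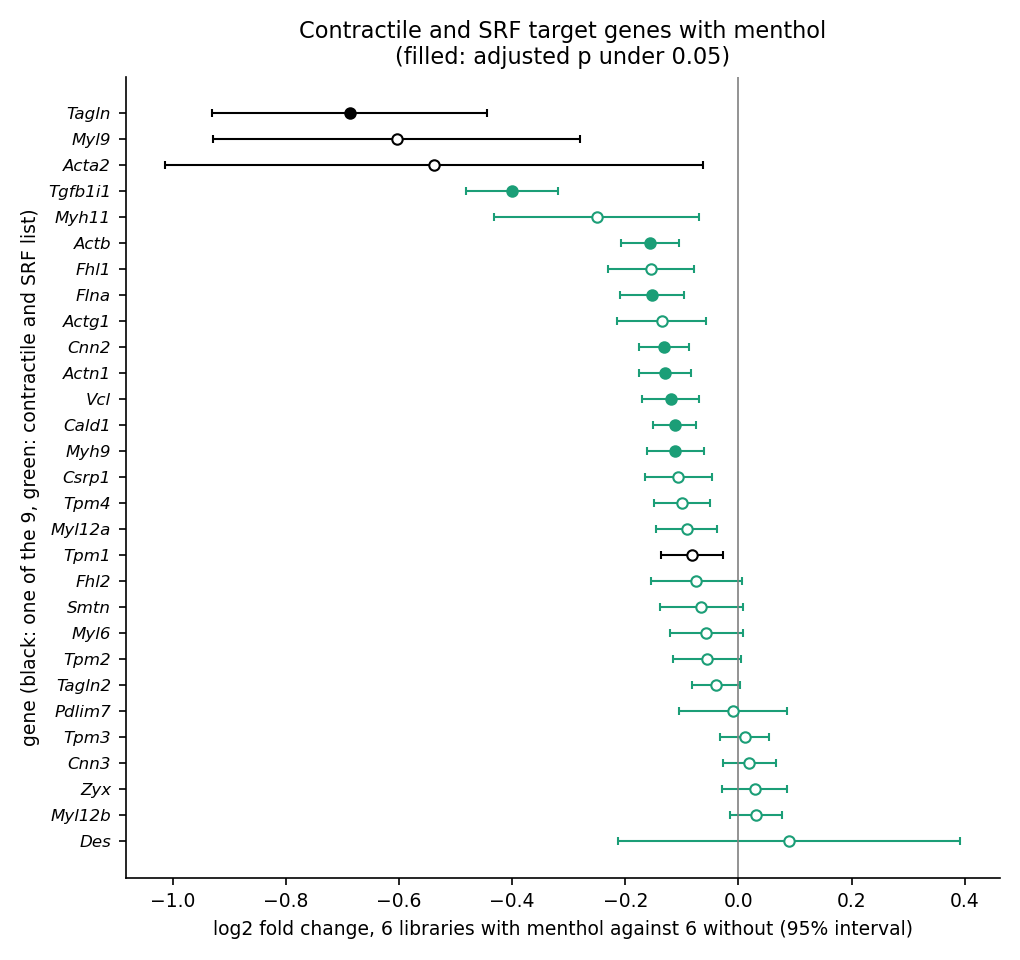
Log2 fold change of the 6 libraries with menthol against the 6 without, with 95% intervals (horizontal axis), for 4 contractile genes of the set (black) and 25 other SRF targets and contractile genes (green), ordered by size. Filled points passed the adjusted p, namely *Tagln* at -0.69 and the 8 other genes from *Tgfb1i1* at -0.40 down to -0.11.

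In the same list and over the same 12 libraries, 2 of 25 genes fell and 0 rose with Wnt3a (0.332% of all genes fell), with a median of -0.04. They were *Zyx* (zyxin, a focal adhesion protein), with a log2 fold change of -0.13 (adjusted p = 0.0426 by limma), and *Actn1*, with -0.11 (adjusted p = 0.0307). With 1 library left out, *Zyx* passed in 0 of 12 fits (adjusted p by limma 0.0518 to 0.121) and *Actn1* in 3 of 12 (0.0278 to 0.0885). With both stimuli against control, 9 of 25 fell and 0 rose (0.515% of all genes fell). With 1 library left out, 5 to 7 of these 9 passed, with 5 without control replicate 1 and without replicate 3 of both stimuli. *Cald1* and *Fhl1* passed in 0 of 6 such fits, *Actb* in 2 of 6 and *Myh9* in 3 of 6. SRF itself had 27.8 FPKM in control libraries, 25.3 with menthol, 24.4 with Wnt3a and 24.8 with both, and *Mrtfa* 7.31, 7.31, 6.99 and 7.70. None of the 6 tested genes for SRF and its cofactors passed in any of the 8 comparisons, and the most abundant of them, *Elk3*, had a log2 fold change of -0.02 with Wnt3a and -0.01 with menthol over the 12 libraries.

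Among 17 tested YAP targets outside the set, 1 fell with Wnt3a over the 12 libraries and 0 rose, against 0.332% of all genes that fell. The median log2 fold change was -0.07 with 13 of 17 lower, against 0.0032 over all genes. The gene was *Lats2*, both a target of YAP and the kinase that inhibits it, with mean FPKM of 50.6, 53.2, 42.6 and 47.6 in the control, menthol, Wnt3a and combined groups. Its log2 fold change was -0.20 with Wnt3a (adjusted p = 0.000727 by limma) and 0.12 with menthol (adjusted p = 0.0302), and the menthol call held in 4 of 12 fits with 1 library left out. *Axl*, a receptor tyrosine kinase, and *Myof* (myoferlin), the most abundant of this list, did not pass with Wnt3a (log2 fold change -0.07, adjusted p = 0.133, and -0.05, adjusted p = 0.232). Of 20 tested Hippo components, only *Lats2* passed in any comparison. *Yap1* had 54.3, 54.3, 51.4 and 54.0 FPKM in control, menthol, Wnt3a and both, *Wwtr1* (which encodes TAZ) 60.2, 57.4, 54.7 and 56.7, and *Tead1* 43.4, 43.4, 40.5 and 43.0.

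Among 17 TGF-β ligands, receptors and SMADs, 1 passed with Wnt3a over the 12 libraries and 1 with menthol, against 0.803% and 1.15% of all tested genes. *Tgfbr1*, the type I receptor, rose with Wnt3a (log2 fold change 0.16, adjusted p = 0.0124 by limma), and *Tgif1*, a corepressor of SMAD proteins, rose with menthol (0.14, adjusted p = 0.0391). *Tgif1* passed in 2 of 12 fits with 1 library left out (adjusted p 0.0225 to 0.113), and *Tgfbr1* in all 12. *Tgfb1* had 40.6, 39.4, 39.3 and 40.1 FPKM in control, menthol, Wnt3a and both, *Tgfbr2* 45.3, 44.6, 39.6 and 42.8, *Smad3* 33.1, 32.3, 31.9 and 31.9, and *Ltbp1*, which holds latent TGF-β in the matrix, 131, 125, 121 and 123. Of 14 tested TGF-β targets outside the set, *Bhlhe40*, a transcriptional repressor, was the 1 that passed with Wnt3a (0.803% of all genes) and the 1 with both stimuli against control (0.83% of all genes). It rose by 0.13 on the log2 scale with Wnt3a (adjusted p = 0.0108 by limma) and by 0.21 with both (adjusted p = 0.004). *Timp1*, an inhibitor of matrix metalloproteinases, had 633, 676, 670 and 658 FPKM in the same order and did not pass in any of the 8 comparisons. In the CCN and thrombospondin families, 4 further genes were tested and 0 passed by limma in any of the 8 comparisons. *Thbs2* had 281, 275, 272 and 280 FPKM and *Ccn4* 14.1, 13.1, 12.6 and 12.8 in control, menthol, Wnt3a and both, against the 787, 700, 594 and 590 of *Thbs1*.

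The genes whose pattern over the 12 libraries was most like each gene of the set were found by Pearson's r among 10696 genes with a mean of at least 100 reads. These values describe 12 libraries that share their treatments. For *Thbs1* they were *Gja1* (connexin 43, r = 0.96), *Akap12* (an anchoring protein of protein kinase A, r = 0.95) and *Ccn1* (r = 0.94), and for *Ccn1* they were *Thbs1*, *Akap12* (r = 0.93) and *Gja1* (r = 0.92). *Akap12* averaged 78.7 FPKM in control libraries, 71.9 with menthol, 61.1 with Wnt3a and 58.8 with both, and *Gja1* 103, 95.9, 92.2 and 89.5. For *Ccn2* the nearest were *Axl* (r = 0.95), *Fosl2* (r = 0.93) and *Arl8a* (r = 0.91). *Axl* had 303, 301, 279 and 297 FPKM in the same order, with its lowest group in Wnt3a as in *Ccn2*. For *Tagln* they were *Gramd1b* (r = 0.96), *Fanci* (r = 0.92) and *Aqp1* (r = 0.92), for *Ankrd1* they were *Mcm6*, *Ttc12* and *Dclre1b* (r between 0.90 and 0.91), and for *Tpm1* *Pdia6*, *Rpn1* and *Adamtsl5* (r between 0.91 and 0.95). The nearest to *Myl9* was *Fdps* (r = 0.91) and to *Acta2* *Rab11a* (r = 0.94). No other gene of the set was among the 3 nearest of *Ccn2*, *Ankrd1*, *Tagln*, *Acta2*, *Myl9* or *Tpm1*.

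After the group means were removed, the deviations of *Thbs1* and *Ccn1* over the 12 libraries had r = 0.60, those of *Ccn1* and *Tagln* r = 0.69 and those of *Thbs1* and *Tagln* r = 0.59. *Ccn2* and *Tpm1* had r = -0.71, and the contractile genes *Tagln*, *Acta2* and *Myl9* had r between -0.05 and -0.03 with each other. Control replicate 1 was the highest of its group for *Thbs1*, *Ccn1* and *Tagln*. These values carry no test.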

How the data were processed

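RNA from 12 ND7/23 libraries, 3 for each of 4 groups taken from the sample labels, was analysed. The authors prepared libraries with the VAHTS Universal V6 kit and, by the submitters' processing notes, used fastp, HISAT, HTSeq, R 3.2.0, DESeq2 and the rat build mRatBN7.2. They deposited FPKM values per gene, with replicates not pooled. How mouse reads of this hybrid line were assigned is not given in the sources used here. FPKM is scaled by gene length and library size, so a rise of abundant genes lowers the others.

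Whole reads were recovered from the FPKM steps for 21556 of 21556 genes (largest relative distance from a whole number 3.4e-13), and for 1804 genes the count rests on 1 library. Depth was 36914010 to 38836269 reads on genes, and 3 reads, the floor, equal 0.0772 to 0.0813 FPKM on a gene of 1 kb, which covers counting error only.

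The test was limma 3.58.1 in R 4.3.3 on log2(FPKM + 0.1), a scale that understates changes of low genes, over 11451 genes averaging 0.5 FPKM or more. All 12 libraries entered 1 fit with a variance trend and no replicate block, with 8 comparisons and Benjamini-Hochberg adjustment over all tested genes. A gene passed at an adjusted p under 0.05. Percent differences compare mean FPKM. In comparisons of 6 against 6 libraries, the mean of the 2 group differences was tested. Scripts were tested on simulated data. Named genes were all 9, every listed pathway gene that passed, the 2 most abundant of each list, central pathway factors and the 3 most similar genes per gene. Some genes under this rule are not reported here. Skeletal muscle (9.56 to 13.1 FPKM summed), endothelial (2.60 to 4.03) and neuronal (113 to 133) markers were also summed. Without *Uchl1*, the neuronal sums were 18.2 to 18.9 in control, 16.7 to 18.1 with menthol, 21.5 to 24.9 with Wnt3a and 23.3 to 23.4 with both. The genes and lists were chosen with earlier results of these data known. Replicate numbers were checked for pairing and did not pair the libraries. Alternatives were other pseudocounts, FPKM minima and scaling, fits of only the groups compared, a replicate block, limma voom on recovered reads, a 2-fold requirement and leaving out each library.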

Additional observations from a re-analysis of the deposited data

How the results depend on the processing

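The number of the 8 tested genes that passed moved as follows. A change of more than 2-fold left 0 in Wnt3a against control, in both stimuli against menthol, in both stimuli against control, and in the 6 against 6 comparisons of Wnt3a and of menthol. With no FPKM minimum, 1 passed in Wnt3a against control, 0 in menthol with Wnt3a against menthol and 0 in menthol over 12 libraries. Fits of only the groups compared gave 1 in Wnt3a against control and 0 in menthol with Wnt3a against menthol. Limma voom gave 1 in menthol against control, 3 in Wnt3a against control (adding *Ccn2*), 3 in both stimuli against control (adding *Tagln*), 1 in menthol with Wnt3a against Wnt3a, 2 in menthol with Wnt3a against menthol and 2 in menthol over 12 libraries. Limma voom also passed more of all 11451 tested genes. In the same order it passed 53, 286, 262, 146, 29 and 313, against 12, 50, 95, 6, 11 and 132 by limma. The replicate block gave 1 in menthol with Wnt3a against Wnt3a, 2 in menthol with Wnt3a against menthol and 4 in menthol with Wnt3a against control. An FPKM minimum of 1, centring on the median and leaving out replicate 1 of both stimuli each gave 3 in both stimuli against control (adding *Ankrd1*). The replicate numbers share only a number: 1 of 18 pairs of same-numbered libraries had a correlation over 0.1 (range -0.06 to 0.15), and 7 of 12 libraries correlated best with their own number.

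Leaving out 1 library at a time gave 1 to 2 genes in Wnt3a against control (1 without control replicate 1 or 3 or Wnt3a replicate 1 or 2, the gene lost being *Ccn1*), 0 to 1 in menthol with Wnt3a against menthol and 1 to 2 in menthol over 12 libraries. *Thbs1* no longer passed in menthol with Wnt3a against menthol in 5 of 6 such fits (without menthol replicate 1, 2 or 3, or without replicate 1 or 3 of both stimuli). Nothing is read from these Wnt3a counts. Without menthol replicate 1 *Myl9*, and without replicate 1 of both stimuli *Tpm1*, also passed over 12 libraries. Over all alternatives, sign changes occurred in 24 recomputed values of small differences. With 1 library left out, the log2 fold changes ran between the following limits. *Ccn2* ran from -0.096 to 0.014 in menthol against control and from -0.11 to 0.014 in menthol with Wnt3a against menthol. *Tagln* ran from -0.086 to 0.20 in Wnt3a against control, from -0.17 to 0.026 in menthol with Wnt3a against menthol, from -0.29 to 0.0021 in the interaction and from -0.085 to 0.060 in Wnt3a over 12 libraries. *Thbs1* ran from -0.037 to 0.018 in menthol with Wnt3a against Wnt3a. *Acta2* ran from -0.057 to 0.42 in menthol with Wnt3a against menthol and from -0.36 to 0.0016 against control, and *Tpm1* from -0.049 to 0.018 against menthol. In the interaction *Ccn1* ran from -0.0088 to 0.11 and *Myl9* from -0.32 to 0.091. The cause of these sign changes was not tested. Planned fits with count models on recovered reads (edgeR and DESeq2) were not run, and limma voom was the fit made on those reads. Of all recomputed values, 1336 kept their direction and side of the threshold, 128 lost the threshold, 15 gained it and 24 changed sign. Depth limits *Cnn1*, *Acta2* and *Myl9* most.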
